A study of Homo sapiens with 6 samples.

Results

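The 38 genes described here are the ATF4 stress factors, the serine, folate and amino acid enzymes and the cytosolic tRNA synthetases of HL-60 cells, taken from the gene table by symbol. All 38 were found among the 58884 genes of the table, and all 38 are among the 16859 genes that passed the expression filter. They fall into 11 stress factors, 15 amino acid and folate enzymes and 12 cytosolic tRNA synthetases. HL-60 is an established human acute myeloid leukemia line that carries a RAS mutation. One group stably carried a short hairpin RNA (shRNA) against EZH2, the catalytic subunit of the Polycomb complex PRC2 that methylates histone H3. The other carried a scrambled hairpin (control shRNA). Each group has 3 libraries, with the title numbers 1, 3 and 4 for EZH2 shRNA and 3, 4 and 5 for control shRNA. Both hairpins came from lentiviral vectors, both populations had been selected with puromycin, which was removed 2 days earlier, and both were held for 24 hours in medium with 0.05% serum. Low serum is thus shared by every library, and no library in full serum was analysed here. Whether same-group libraries stem from independent transductions or cultures is not stated, and a p-value here reflects library-to-library spread alone, some or all of which could be technical.

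ATF4 is the transcription factor through which cells answer a shortage of amino acids or unfolded protein in the endoplasmic reticulum (ER). Kinases such as PERK (EIF2AK3) and GCN2 (EIF2AK4) phosphorylate the initiation factor eIF2, general translation slows, and the ATF4 mRNA is translated more. ATF4 then binds composite sites with C/EBP partners and raises genes of serine, glycine and asparagine synthesis, mitochondrial folate metabolism, amino acid uptake and tRNA charging. Leukemia cells depend on the serine and mitochondrial folate steps for nucleotide synthesis. Because ATF4 is regulated in large part by translation, its mRNA level is not a measure of its protein.

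The promoters of 31 of the 38 genes were found in the RefSeq promoter table (GRCh38.p14), as windows from 250 bases before to 50 bases after each annotated start. The table was not matched for PSPH, SHMT2, ALDH1L2, PYCR1, GPT2, LARS and YARS. The core of the composite C/EBP and ATF4 element, TGATGNAA, was searched on both strands (TTNCATCA on the other strand). It was present in 11 of the 31 genes (35.5%), against 1217 of 27305 genes with a window in the table (4.46%). By window the shares were 13 of 49 (26.5%) and 1270 of 35116 (3.62%). The 38 genes were chosen as ATF4 stress factors and genes of pathways that ATF4 raises, so a higher share can follow from that choice alone. The matches lay in 2 of 11 stress factors, 2 of 10 matched enzymes and 7 of 10 matched synthetases, and in 8 of the 11 genes the letters read TGATGCAA on one strand or the other. The stretches that hold them are shown because the element is a sequence feature that 11 of these genes have in common. They run 5′ to 3′ in the direction of the gene, with the match in capitals.
ATF3, chr1:212565186-212565245, plus strand: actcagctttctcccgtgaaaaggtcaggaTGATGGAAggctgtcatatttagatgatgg
CHAC1, chr15:40953232-40953291, plus strand: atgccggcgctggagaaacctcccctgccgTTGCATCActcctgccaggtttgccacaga
ASNS, chr7:97872447-97872506, minus strand: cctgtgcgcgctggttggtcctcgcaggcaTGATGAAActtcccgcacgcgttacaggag
MTHFD1L, chr6:150866327-150866386, plus strand: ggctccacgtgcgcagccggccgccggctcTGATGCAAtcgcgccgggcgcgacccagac
AARS, chr16:70289664-70289723, minus strand: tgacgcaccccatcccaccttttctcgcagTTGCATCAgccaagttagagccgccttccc
CARS, chr11:3057399-3057455, minus strand: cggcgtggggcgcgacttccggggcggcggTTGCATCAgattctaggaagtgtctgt
GARS, chr7:30594815-30594874, plus strand: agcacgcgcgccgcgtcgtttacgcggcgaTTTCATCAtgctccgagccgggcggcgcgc
IARS, chr9:92293681-92293740, minus strand: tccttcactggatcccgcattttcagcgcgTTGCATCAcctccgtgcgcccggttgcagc
MARS, chr12:57488034-57488092, plus strand: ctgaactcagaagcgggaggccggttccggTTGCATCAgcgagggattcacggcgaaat
NARS, chr18:57621812-57621852, minus strand: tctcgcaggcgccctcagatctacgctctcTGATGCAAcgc
TARS, chr5:33440937-33440989, plus strand: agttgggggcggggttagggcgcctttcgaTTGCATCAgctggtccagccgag
In ASNS the match began 68 bases before the start. It began 129 bases before the start shown for MTHFD1L (4 starts are listed, and the windows of 3 hold a match), 187 in AARS, 191 in ATF3 and 209 in CHAC1. In the synthetases CARS, MARS, IARS and GARS the element began 2, 4, 13 and 33 bases before the start shown. In TARS and NARS it began at base 3 and base 15 after the start shown. ATF3, ASNS, CARS, GARS and TARS each also have a listed window without a match. A match is a run of letters and not a measured binding site, and its absence from a window says nothing of ATF4 elsewhere in the gene.

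EZH2 itself had 79.5, 83.2 and 77.3 CPM (counts scaled to library depth) in the EZH2 shRNA libraries and 148, 150.5 and 150.3 CPM in the control libraries, a log2 fold change of -0.90 (SE 0.04, edgeR adjusted p = 3.22e-11). An exact permutation test (two-sided) gave p = 0.1 for EZH2, and with 3 libraries per group no gene can go lower. Total counts lay between 39717343 and 85074624 per library, so that a floor of 3 counts was at most 0.0759 CPM. Of 13 promyelocyte markers 12 were at 1 CPM or more in every library, and their summed level was 12674 to 13110 CPM in EZH2 shRNA libraries and 12121 to 12925 CPM in controls. That sum is mostly MPO, myeloperoxidase, at a mean of 9416 CPM with EZH2 shRNA and 9795 CPM with control shRNA (-0.06, adjusted p = 0.405). Of the 12 that were tested 6 rose, 3 fell and 3 did not pass. PRTN3, proteinase 3, averaged 96.5 CPM with EZH2 shRNA and 21.8 CPM with control shRNA (2.14, adjusted p = 1.55e-08), AZU1 was at 0.69, MYC at 0.52, CEBPA at 0.49, CEBPE at 0.38 and MYB at 0.21, while PTPRC was at -0.59, LYZ at -0.53 and CTSG at -0.22. Mitochondrially encoded genes took 3.62%, 4.01% and 3.72% of the counts in EZH2 shRNA libraries and 3.28%, 3.23% and 3.24% in control libraries, without overlap. The part of these marker changes and of the mitochondrial share in the results for the 38 genes was not tested. The marker under 1 CPM was ELANE, neutrophil elastase, with 0.0803, 0.224 and 0.130 CPM in EZH2 shRNA libraries and 0, 0.0576 and 0.0471 CPM in control libraries. Of 15 markers of lymphoid, erythroid, epithelial, stromal, endothelial and liver cells none reached 1 CPM in any library and 6 had no count at all. These summed to between 1.37 and 1.59 CPM in EZH2 shRNA libraries and between 0.785 and 1.13 CPM in controls.

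Most of the 38 genes were lower with EZH2 shRNA. By edgeR's quasi-likelihood test with Benjamini-Hochberg adjustment over all genes and a threshold of 0.05, 28 fell, 3 rose and 7 did not pass. Calls in either direction took 46.7% of all genes tested, falls 22.9% and rises 23.8%, while among the 38 genes falls made up 73.7% and rises 7.89%. Among the 11293 genes at least as abundant as the weakest of the 38 (ASNS, at 3.36 CPM), 56.8% were called in either direction, against 81.6% of the 38. The median log2 fold change was -0.36 for the 38 genes and 0.01 for all genes. Single changes were moderate, the lowest at -0.98, and 0 of the 38 genes were both called and changed by at least 2-fold, against 6.54% of all genes. The groups did not overlap for 32 of the 38 genes, 29 with every EZH2 shRNA library below every control library and 3 above. Such separation was found for 54.9% of all genes, 27% below and 27.9% above.

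**Figure D1:**
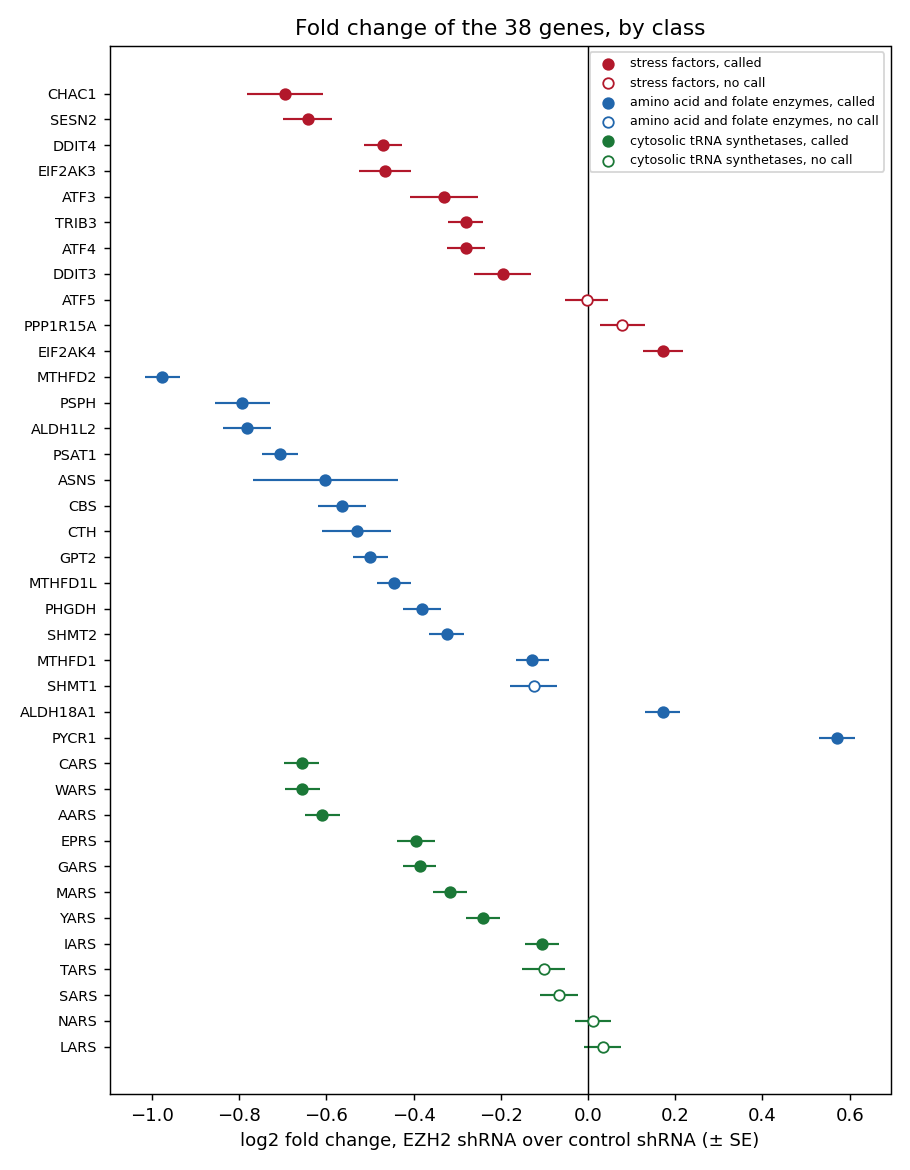
Log2 fold change (EZH2 shRNA over control shRNA, x axis, bars ± SE, 3 libraries per group) of the 38 genes in 3 classes, with filled points for genes past the threshold and open points for the others. MTHFD2 is lowest at -0.98, PYCR1 stands alone on the right at 0.57, and ATF5, LARS and NARS lie near 0.

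**Figure D2:**
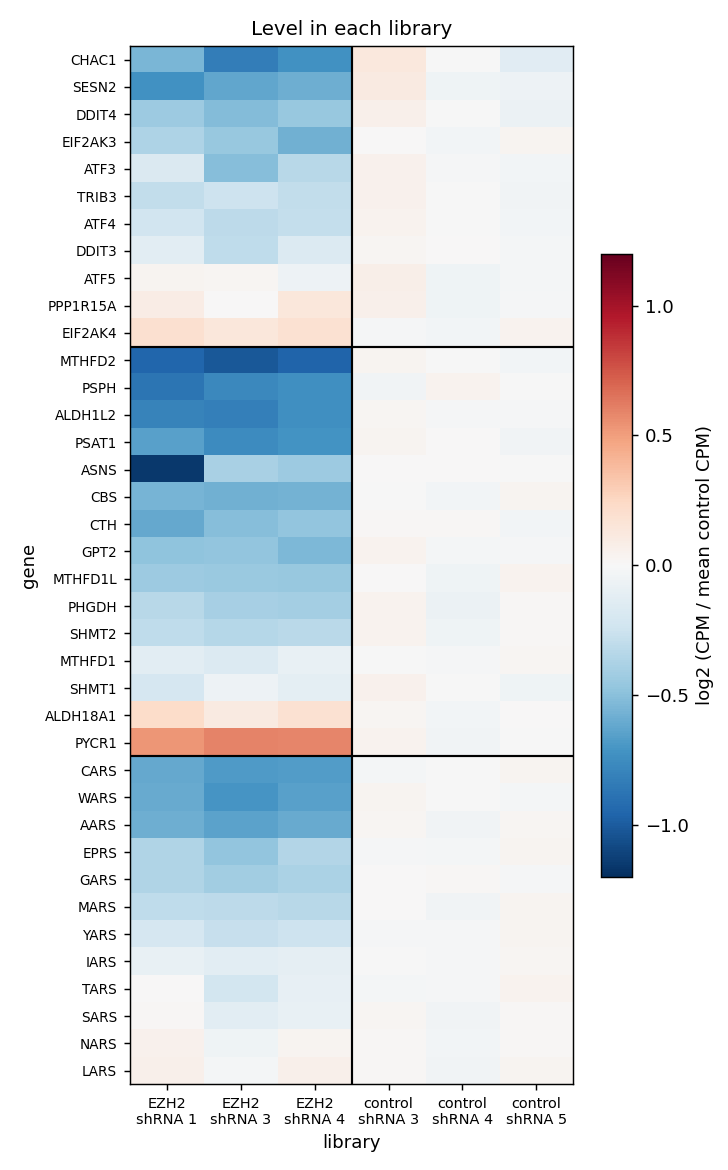
Level of each gene in each library as log2 of its CPM over the mean control CPM, with EZH2 shRNA libraries left and control libraries right, and lines between the 3 classes. The 3 EZH2 shRNA libraries carry the same colour in most rows, and ASNS is the row with a library (EZH2 shRNA 1) apart from the other two.

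Per unit length, ATF4 was the most abundant of the 38 mRNAs and ASNS the least. FPKM are the authors' deposited values, fragments scaled by gene length and library depth. The annotation release behind that length is not given in the sources used here. In GENCODE v44 PHGDH has 9187 annotated exonic bases and PSAT1 2206, so an order by FPKM may reflect annotated length as well as mRNA level. In FPKM the level of ATF4 averaged 347 in EZH2 shRNA cells and 424 in control cells. Over all 6 libraries PSAT1 came next at 109 FPKM, followed by NARS at 91.5, SHMT2 at 84.1 and GARS at 73.7 FPKM. The synthetases ranged from 9.56 FPKM for CARS to that level of NARS. The stress factors ranged down to EIF2AK4 at 3.99 FPKM, and the enzymes down to ALDH1L2 at 2.68 and ASNS at 0.684 FPKM.

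Of the transcription factors, ATF4, ATF3 and DDIT3 fell and ATF5 did not pass. ATF4 (ENSG00000128272, chr22:39519695-39522685, plus strand) had 908, 858 and 873 CPM with EZH2 shRNA and 1099, 1061 and 1042 CPM with control shRNA. The groups were apart, at 82.4% of the control level (log2 fold change -0.28, SE 0.04, adjusted p = 5.29e-05). ATF3, a factor of the same family that is itself an ATF4 target, had 17.9, 14.2 and 16.04 CPM with EZH2 shRNA and 20.9, 19.97 and 19.7 CPM in controls (-0.33, SE 0.08, adjusted p = 0.00211). DDIT3 encodes CHOP, the factor tied to cell death in prolonged ER stress. DDIT3 had 18.8, 16.6 and 18.3 CPM with EZH2 shRNA, close below the 20.9, 20.6 and 20.1 CPM of the controls (-0.20, SE 0.07, adjusted p = 0.0204). That call of the gene DDIT3 was lost without EZH2 shRNA library 3 (adjusted p = 0.0518), control library 3 (0.0728) or control library 4 (0.0548), and with the medians of neighbouring genes removed it was at -0.05 (0.619). DDIT3 shares 355 exonic bases (27.2% of its own) with MARS on the other strand, which was far more abundant and also fell. The strand setting of the counting is not given in the sources used here, so it is not known whether reads in that stretch were told apart. ATF5, a related factor of mitochondrial stress, averaged 50.1 ± 1.84 CPM with EZH2 shRNA and 50.2 ± 2.10 CPM with control shRNA (SD, n = 3 each; log2 fold change 0.00, SE 0.05, adjusted p = 0.962). It shares 565 exonic bases (19.5%) with NUP62 on the other strand.

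The eIF2 kinases went in opposite directions. EIF2AK3, the ER stress kinase PERK, had 27.1, 25.55 and 23.5 CPM with EZH2 shRNA and 35.0, 34.2 and 35.7 CPM with control shRNA (-0.47, SE 0.06, adjusted p = 5.9e-06). EIF2AK3 lies on chromosome 2, where the median log2 fold change over 718 genes was -0.30, and with the chromosome medians removed it was at -0.17 (adjusted p = 0.0239). EIF2AK4, the amino acid sensing kinase GCN2, was the only stress factor called higher, with 51.7, 49.7 and 51.5 CPM against 44.8, 44.2 and 46.6 CPM in controls (0.17, SE 0.05, adjusted p = 0.00492). All 3 EZH2 shRNA libraries were above all 3 controls for this gene, as for 27.9% of all genes tested.

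Among the effectors below ATF4, CHAC1 and SESN2 fell most. CHAC1, an enzyme that degrades glutathione, had 11.4, 9.37 and 10.1 CPM with EZH2 shRNA and 18.2, 16.6 and 15.2 CPM with control shRNA (-0.69, SE 0.09, adjusted p = 5.48e-06). SESN2, a leucine sensor that restrains the growth kinase complex mTORC1, had 34.6, 37.1 and 38.04 CPM with EZH2 shRNA and 61.7, 55.0 and 54.9 CPM in controls (-0.64, SE 0.06, adjusted p = 7.78e-08). DDIT4 (REDD1), another brake on mTORC1, was at 72.2% of control. DDIT4 averaged 124 ± 3.59 CPM with EZH2 shRNA and 171 ± 7.84 CPM with control shRNA (SD, n = 3 each; -0.47, SE 0.04, adjusted p = 1.48e-07). TRIB3, a pseudokinase that feeds back on ATF4, averaged 135 ± 2.53 CPM and 164 ± 5.29 CPM in EZH2 shRNA and control libraries (-0.28, SE 0.04, adjusted p = 1.87e-05). PPP1R15A (GADD34), the phosphatase subunit that removes the phosphate from eIF2, did not pass, with 42.0, 39.5 and 43.4 CPM with EZH2 shRNA and 41.3, 38.1 and 39.1 CPM in controls (0.08, SE 0.05, adjusted p = 0.238). In total 8 of the 11 stress factors fell and 1 rose, with a median of -0.28. Falls took 72.7% of them, against 22.9% of all genes tested.

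All 3 enzymes of serine synthesis from the glycolytic intermediate 3-phosphoglycerate fell. PSAT1, the aminotransferase of the middle step (ENSG00000135069, chr9:78297125-78330093, plus strand), had 191, 177 and 182 CPM with EZH2 shRNA and 306, 299.96 and 291 CPM with control shRNA. It was at 61.3% of control (-0.71, SE 0.04, adjusted p = 6.76e-10). PSPH, the phosphatase of the last step, had 13.9, 14.8 and 15.3 CPM with EZH2 shRNA and 24.8, 26.2 and 25.3 CPM in controls (-0.79, SE 0.06, adjusted p = 2.87e-08). PHGDH, the dehydrogenase of the first step, changed less, with 306, 293 and 292 CPM with EZH2 shRNA and 399, 369 and 392 CPM in controls (-0.38, SE 0.04, adjusted p = 1.44e-06). The highest EZH2 shRNA library stood below the lowest control library for each of the 3 genes, as it did for 27% of all genes tested.

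All 4 mitochondrial folate enzymes fell (median -0.61), and 1 of the 2 cytosolic ones did (median -0.13). The difference between these groups was not tested. MTHFD2, the mitochondrial methylenetetrahydrofolate dehydrogenase (ENSG00000065911, chr2:74198610-74217565, plus strand), had 199.7, 191 and 197 CPM with EZH2 shRNA and 395, 383 and 378 CPM with control shRNA. That was 50.9% of control (-0.98, SE 0.04, adjusted p = 8.74e-12). MTHFD2 lies on chromosome 2, and with the chromosome medians removed it was at -0.68 (adjusted p = 4.43e-10). Its fall was the largest of the 38 genes as tested, but with the chromosome medians removed PSPH (-0.84), ALDH1L2 (-0.77) and PSAT1 (-0.73) were lower, and with the medians of neighbouring genes removed ALDH1L2 (-0.80) was. ALDH1L2, which oxidizes formyl-tetrahydrofolate in mitochondria, had 18.6, 18.3 and 19.5 CPM with EZH2 shRNA and 33.0, 32.1 and 32.1 CPM in controls (-0.78, SE 0.06, adjusted p = 7.48e-09). MTHFD1L, the mitochondrial formate ligase, was at 73.5% of control (-0.44, SE 0.04, adjusted p = 1.14e-07) and SHMT2, the serine hydroxymethyltransferase of mitochondria, at 79.9% (-0.32, SE 0.04, adjusted p = 4.7e-06). An abundant pseudogene, AL133260.1, lies within MTHFD1L on the same strand and was higher (0.20, adjusted p = 0.00071).

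In the cytosol, MTHFD1, which carries the same chemistry as MTHFD2 and MTHFD1L on one protein, had 198, 193 and 204 CPM with EZH2 shRNA and 216, 214 and 219.8 CPM with control shRNA (-0.13, SE 0.04, adjusted p = 0.0118). That call of the gene MTHFD1 was lost without control library 5 (adjusted p = 0.0535). SHMT1, the cytosolic hydroxymethyltransferase, did not pass, with 31.8, 35.3 and 33.8 CPM with EZH2 shRNA and 38.04, 36.7 and 35.3 CPM in controls (-0.12, SE 0.05, adjusted p = 0.0704). SHMT1 lies on chromosome 17, whose median was 0.15, and with the chromosome medians removed it was at -0.27 (adjusted p = 0.00055), with the medians of neighbouring genes removed at -0.16 (0.017) and without EZH2 shRNA library 3 at -0.17 (0.0164). The ratio of MTHFD2 to MTHFD1 per unit length (FPKM over FPKM) was 2.553, 2.499 and 2.451 with EZH2 shRNA and 4.63, 4.53 and 4.35 with control shRNA, with no overlap. The ratio of SHMT2 to SHMT1 was 17.4, 15.3 and 16.2 with EZH2 shRNA and 18.5, 18.0 and 19.5 in controls, also with no overlap but closer. The size of such a ratio depends on the gene lengths behind the FPKM values. No test of these ratios was made.

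The proline branch rose. PYCR1, the pyrroline-5-carboxylate reductase of mitochondria (ENSG00000183010, chr17:81932384-81942412, minus strand), had 105, 110.5 and 109 CPM with EZH2 shRNA and 75.3, 70.8 and 73.0 CPM with control shRNA, or 149% of control (0.57, SE 0.04, adjusted p = 1.01e-08). PYCR1 was at 0.42 with the chromosome medians removed (adjusted p = 3.21e-07) and at 0.27 with the medians of neighbouring genes removed. ALDH18A1, the synthase that makes pyrroline-5-carboxylate from glutamate, had 210.2, 195 and 205 CPM with EZH2 shRNA and 183, 176 and 181 CPM in controls (0.17, SE 0.04, adjusted p = 0.00225). These were the 2 enzymes of the 15 that were called higher. PYCR1 is a known ATF4 target. The ratio of PYCR1 to ALDH18A1 in FPKM was 0.653, 0.739 and 0.696 with EZH2 shRNA and 0.534, 0.522 and 0.524 with control shRNA.

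The remaining amino acid enzymes were lower. GPT2, the mitochondrial alanine aminotransferase, averaged 107 ± 2.67 CPM with EZH2 shRNA and 150.5 ± 3.88 CPM with control shRNA (SD, n = 3 each; -0.50, SE 0.04, adjusted p = 3.03e-08). The transsulfuration enzymes, which make cysteine from homocysteine, changed by similar amounts. CBS, the first, had 19.4, 19.1 and 19.3 CPM with EZH2 shRNA and 28.5, 27.8 and 29.2 CPM in controls (-0.56, SE 0.06, adjusted p = 3.63e-07). Its duplicate CBSL on the same chromosome takes part of the reads and was also lower (-0.71, adjusted p = 7.37e-06), so the split between them is uncertain. CTH, the second enzyme, had 7.81, 8.42 and 8.64 CPM with EZH2 shRNA and 12.1, 12.1 and 11.8 CPM in controls (-0.53, SE 0.08, adjusted p = 3.34e-05).

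ASNS, asparagine synthetase, is a standard reporter of ATF4 activity, and its counts were few. ASNS had 91, 167 and 256 reads with EZH2 shRNA and 161, 213 and 172 reads with control shRNA, equal to 1.83, 3.12 and 3.01 CPM with EZH2 shRNA and 4.07, 4.09 and 4.05 CPM with control shRNA. The groups were apart (-0.60, SE 0.17, adjusted p = 0.00708), EZH2 shRNA library 1 was the lowest, and on unfiltered FPKM the gene ASNS did not pass (adjusted p = 0.0777). A long non-coding gene of the table, AC079781.5, covers ASNS on the same strand and shares 2415 of its exonic bases (49.3%) in the GENCODE v44 annotation. How reads that fall in both genes were counted is not given in the sources used here, so the level of ASNS may be understated and is not to be set against that of other genes. The gene AC079781.5 itself was at 1.03 CPM and higher with EZH2 shRNA (0.76, adjusted p = 0.0179).

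**Figure D3:**
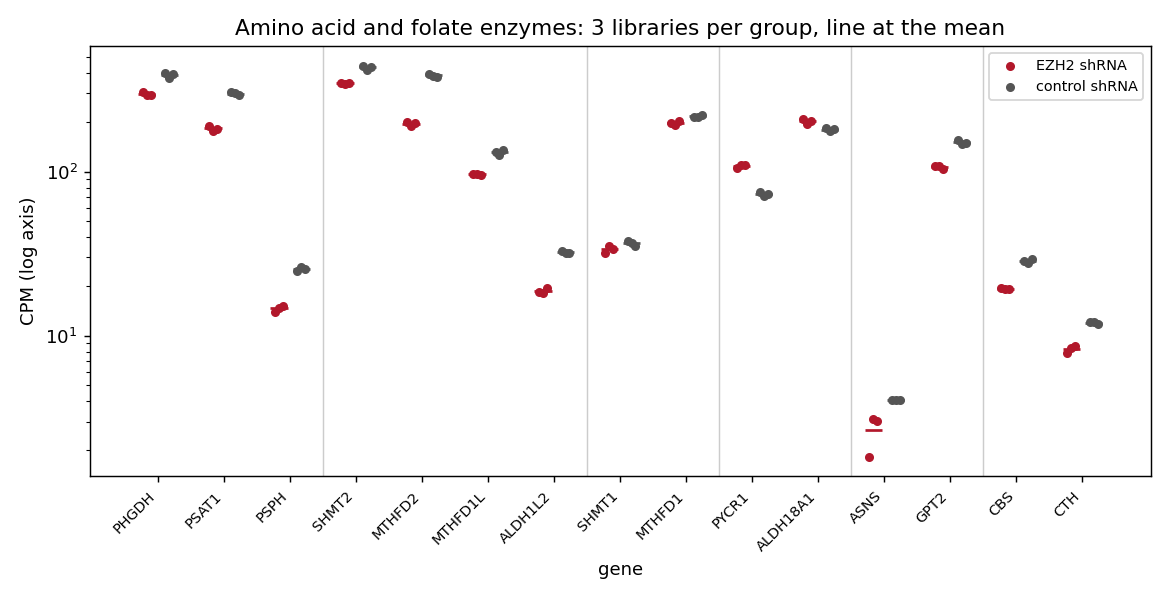
CPM on a log axis of the 15 enzymes in every library, with EZH2 shRNA (red) left of control shRNA (grey) for each gene and a line at the mean of 3 libraries, separated by pathway: serine synthesis, mitochondrial folate, cytosolic folate, proline, asparagine and alanine, transsulfuration. Only PYCR1 and ALDH18A1 have the red points above the grey ones.

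Cytosolic tRNA synthetases, which charge tRNAs with amino acids, fell in 8 of 12 cases with 0 rises, at a median of -0.28. Falls took 66.7% of them, against 22.9% of all genes tested. In either direction 66.7% were called, against 46.7% of all genes tested and 56.8% of those at least as abundant as ASNS. WARS, CARS and AARS, for tryptophan, cysteine and alanine, had the lowest fold changes as tested. AARS (ENSG00000090861, chr16:70252295-70289543, minus strand) had 222, 213 and 219 CPM with EZH2 shRNA and 337, 323 and 338 CPM with control shRNA, or 65.6% of control (-0.61, SE 0.04, adjusted p = 2.53e-09). WARS, which interferon also induces, had 159, 148 and 154 CPM with EZH2 shRNA and 247, 241 and 238 CPM in controls (-0.65, SE 0.04, adjusted p = 1.18e-09). CARS had 77.1, 73.4 and 73.9 CPM with EZH2 shRNA and 116, 117 and 120.4 CPM in controls (-0.66, SE 0.04, adjusted p = 1.29e-09). CARS lies on chromosome 11, with a median of -0.27 over 593 genes, and with the chromosome medians removed it was at -0.39 (adjusted p = 5.5e-07), above GARS (-0.43) and EPRS (-0.41) with the same correction.

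The synthetases for proline and glutamate (EPRS), glycine (GARS), methionine (MARS) and tyrosine (YARS) also fell. EPRS had 311, 287 and 313 CPM with EZH2 shRNA and 396, 394 and 408 CPM with control shRNA (-0.39, adjusted p = 1.06e-06). GARS had 261, 251 and 258 CPM against 335, 338 and 333 CPM in controls (-0.39, adjusted p = 3.56e-07). MARS and YARS were at 80.4% and 84.6% of control (-0.32 and -0.24, adjusted p = 4.17e-06 and 8.02e-05), and MARS was at -0.18 with the medians of neighbouring genes removed. IARS, for isoleucine, had 453, 441 and 445 CPM with EZH2 shRNA and 477, 475 and 488 CPM in controls (-0.11, SE 0.04, adjusted p = 0.0356). The groups of IARS did not overlap, which held for 54.9% of all genes tested. Of 18 alternatives 8 ended the call of IARS, among them leaving out EZH2 shRNA library 4 (adjusted p = 0.119) or control libraries 3, 4 or 5 (0.0845, 0.0563 and 0.129).

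LARS, NARS, SARS and TARS did not pass, and their groups overlapped. LARS, for leucine, had 379, 356 and 378 CPM with EZH2 shRNA and 366, 351 and 371 CPM with control shRNA (0.03, SE 0.04, adjusted p = 0.542). NARS, for asparagine, averaged 378 ± 13.98 CPM with EZH2 shRNA and 375 ± 8.30 CPM with control shRNA (SD, n = 3 each; 0.01, SE 0.04, adjusted p = 0.841). SARS, for serine, was at -0.07 (SE 0.04, adjusted p = 0.235). TARS, for threonine, had 267, 229.7 and 250.1 CPM with EZH2 shRNA and 262, 265 and 274 CPM in controls (-0.10, SE 0.05, adjusted p = 0.107). Without EZH2 shRNA library 1, the highest of its group for both, the genes TARS (-0.16, adjusted p = 0.00314) and SARS (-0.11, adjusted p = 0.0211) passed. NARS and TARS are the 2 genes of the 11 with the TGATGNAA element that were not called. Both have the element after the start, but so does MTHFD1L for another of its listed starts (at base 25), and MTHFD1L fell. A link between the position of the element and the calls was not tested. The other 9 genes with the element fell, and of the 20 matched genes without it 14 fell, 2 rose and 4 did not pass. By complex, EPRS, IARS, LARS and MARS belong to the multi-synthetase complex, of which 3 of 4 fell, and 5 of the 8 free enzymes fell. The summed level of the 12 synthetases was 3189, 3007 and 3122 CPM with EZH2 shRNA and 3693, 3629 and 3739 CPM with control shRNA, without overlap. Among single genes, 27% of all tested had every EZH2 shRNA library below every control library.

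The other genes of these pathways were read from 6 lists chosen by role, with earlier results of these data known. Of 25 other ATF4 target genes 22 were tested, and 18 fell (81.8%) with 0 rises, at a median of -0.32. Over all genes tested 22.9% fell and 23.8% rose. The glycine transporter SLC6A9 fell by 1.76 on the log2 scale, with means of 4.08 CPM under EZH2 shRNA and 13.8 CPM under control shRNA (adjusted p = 7.71e-11). The cystine transporter SLC7A11 was at -1.36, the neutral amino acid transporter SLC1A4 at -0.90 and the amino acid transporter SLC38A2 at -0.84 (adjusted p = 2.86e-10, 1.75e-11 and 1.08e-10). SLC1A4 lies on chromosome 2 and was at -0.61 with the chromosome medians removed and at -0.55 with the medians of neighbouring genes removed. The 4 that were not called were CEBPB (-0.22, called without control library 5 at adjusted p = 0.047), NFE2L1 (0.05), XPOT (-0.02) and SLC7A1 (0.02), and NUPR1, GDF15 and CDSN were too low to test. These 7 genes, and others named below to complete a count, were chosen after their values were seen.

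Other cytosolic synthetases and their scaffold proteins were mixed, with 4 of 11 lower (DARS at -0.40, RARS at -0.25, AIMP1 at -0.16, FARSB at -0.13) and 2 higher (KARS at 0.18, FARSA at 0.15). Calls took 54.5% of this list, against 46.7% of all genes tested and 56.8% of those at least as abundant as ASNS. DARS and FARSB lie on chromosome 2, and with the chromosome medians removed they were at -0.11 (adjusted p = 0.0298) and 0.16 (adjusted p = 0.0036), the opposite direction for FARSB. FARSA was at 0.08 (0.119) with the same correction. FARSB lost its call without EZH2 shRNA library 4 (adjusted p = 0.0768), and AIMP1 without EZH2 shRNA library 3 or 4 or any control library (0.0699 to 0.084). Of 17 mitochondrial tRNA synthetases, 6 rose and 2 fell (47.1% called, near the 46.7% of all genes tested and below that 56.8%), with a median of 0.09. WARS2 fell (-0.30, adjusted p = 0.000552), and VARS2 was higher by 0.22 (adjusted p = 0.00269). CARS2, on chromosome 13, was higher by 0.28 (adjusted p = 1.32e-05), and with the chromosome medians removed it was at 0.08 (adjusted p = 0.126).

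ER chaperones and other targets of the IRE1 and ATF6 branches of the unfolded protein response fell in 11 of 24 cases and rose in 4, with a median of -0.13. Calls took 62.5% of this list, against 46.7% of all genes tested and 56.8% of those at least as abundant as ASNS. HYOU1 (-0.49) and SYVN1 (-0.49), both on chromosome 11, and EDEM1 (-0.32) fell, and with the chromosome medians removed HYOU1 and SYVN1 were at -0.23 and -0.22. PDIA4 rose by 0.43 (0.18 with the medians of neighbouring genes removed), CALR by 0.30, CRELD2 by 0.22 and SEC61B by 0.12. SEC61B lost its call without EZH2 shRNA library 1 or 4 or any control library (adjusted p = 0.052 to 0.132). HSPA5, the chaperone BiP that is the usual gauge of that response, was at -0.04 (SE 0.04, adjusted p = 0.555), with 567 CPM under EZH2 shRNA and 581 CPM under control shRNA. Its neighbour in the pathway XBP1 was at -0.01 (adjusted p = 0.866). HSPA5 and XBP1 were likewise named after their values were seen.

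Among eIF2 kinases, eIF2 and eIF2B subunits 5 of 14 fell and 3 rose, with a median of -0.03. Calls took 57.1% of them, against 46.7% of all genes tested and 56.8% of those at least as abundant as ASNS. The double-stranded RNA kinase EIF2AK2, an interferon-stimulated gene, fell by 1.12 on the log2 scale. EIF2AK2 lies on chromosome 2 and was at -0.82 with the chromosome medians removed and at -0.88 with the medians of neighbouring genes removed. The eIF2 subunits EIF2S3 and EIF2S2 were at -0.37 and -0.22. EIF2B2 (-0.22) and EIF2B4 (-0.14, but 0.15 with the chromosome medians removed) were lower, and EIF2B5 (0.27), EIF2B3 (0.19) and GCN1 (0.12), the partner of GCN2, higher. EIF2B4 lost its call without control library 3 (adjusted p = 0.058), EIF2B3 without EZH2 shRNA library 1 or any control library (0.0889 to 0.214), and GCN1 without EZH2 shRNA library 3 or 4 or control library 4 (0.0692 to 0.19). Of 19 tested genes of the wider folate, glycine and methionine cycles 6 fell and 4 rose, with a median of -0.16. That was 52.6% called, against the same 46.7% and 56.8%. ALDH1L1 fell by 0.66 on the log2 scale, whereas the folate carrier SLC19A1 rose by 0.33, MTRR by 0.26 (0.10, not called, with the medians of neighbouring genes removed), FPGS by 0.19 and MTR by 0.13. MTR lost its call without EZH2 shRNA library 3 or 4 or control library 3 or 4 (adjusted p = 0.0723 to 0.129).

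**Figure D4:**
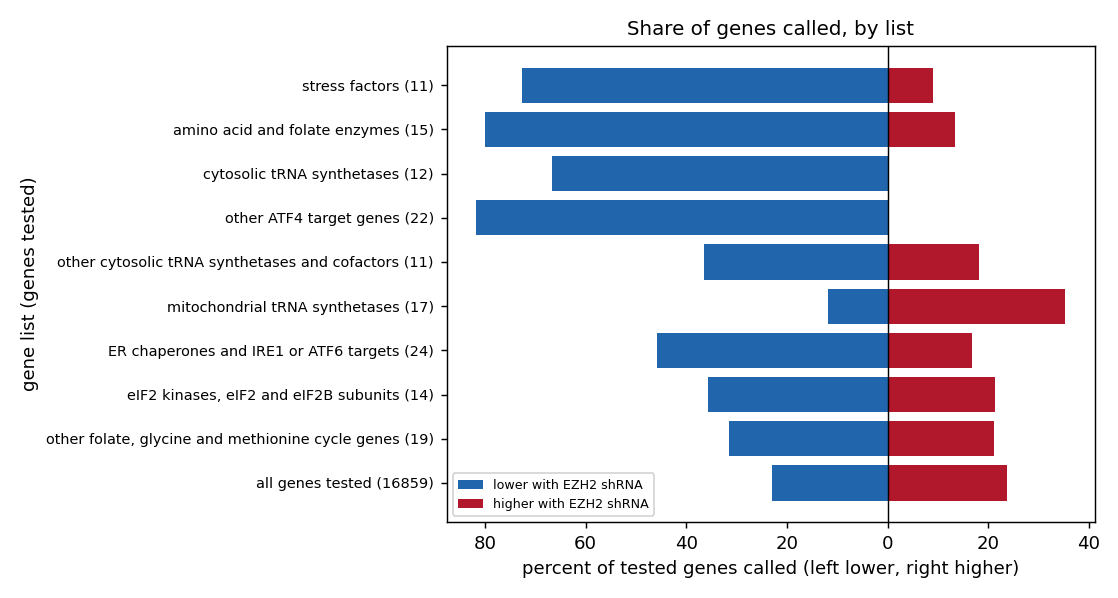
Share of tested genes called lower (left, blue) or higher (right, red) with EZH2 shRNA, for the 3 classes, 6 related lists and all genes tested, with the number of genes tested in parentheses. Falls take 66.7% to 80% of the 3 classes and 81.8% of the other ATF4 target genes, 11.8% of the mitochondrial tRNA synthetases and 22.9% of all genes.

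The genes of chromosomes 2 and 11 were lower as a whole in EZH2 shRNA cells and those of chromosomes 13 and 17 higher, by medians of -0.30, -0.27, 0.20 and 0.15. Of the 38 genes, which lie on 18 chromosomes, 3 are on chromosomes 2 or 11 (MTHFD2, EIF2AK3 and CARS), and all 3 of them fell. Without these chromosomes 25 of 35 genes fell, where 22.9% of all genes tested on any chromosome fell. With the median of each chromosome removed, 29 of 38 genes fell and 3 rose, with a median of -0.34. Over all 16859 genes tested 3484 fell and 4024 rose with that correction. With the median of 40 neighbouring genes removed, 28 fell and 4 rose, LARS being the additional one (0.13, adjusted p = 0.0156). TRIB3 was then at -0.52, a larger fall than without the correction. Over all genes tested 3436 fell and 4008 rose with the medians of neighbouring genes removed.

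**Figure D5:**
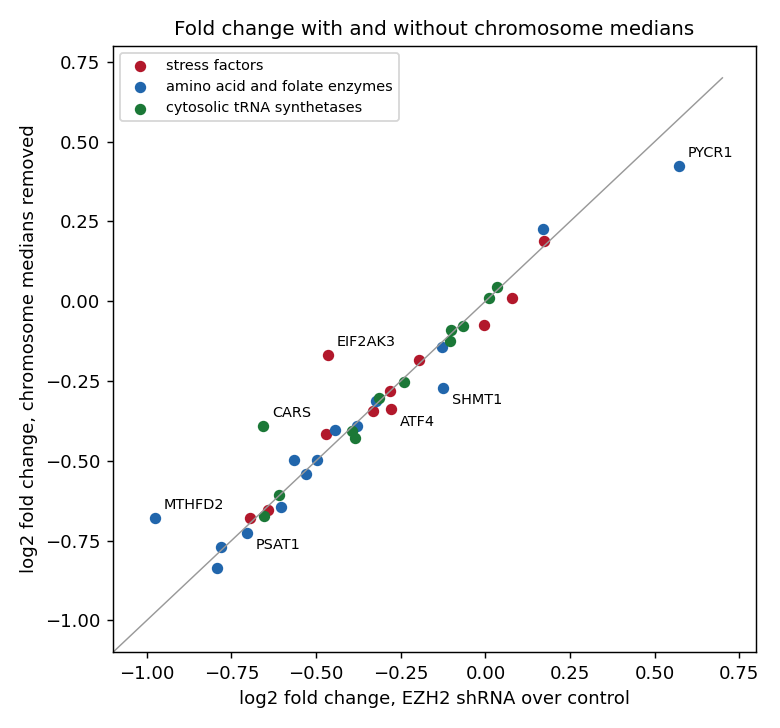
Log2 fold change (EZH2 shRNA over control) of the 38 genes as tested (x axis) and with the median of their chromosome removed (y axis), with a line where both are equal. MTHFD2, EIF2AK3 and CARS lie above the line, at -0.68, -0.17 and -0.39 after correction, and PYCR1 and SHMT1 lie below it.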

How the data were processed

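Polyadenylated RNA of 6 HL-60 libraries was sequenced as stranded single reads, per the labels' protocols. The authors deposited raw counts per gene without normalization and FPKM values, and the deposited FPKM values are used here for levels per length and as an alternative. Tools listed in the submitters' processing notes, without role or order, are DESeq2 1.24.0, STAR 2.5.2b, R 3.6.1 and Picard 2.18.24, with GRCh38 as build. No source used here gives the counting program, annotation release or strand setting. Libraries within a group were distinct, since their counts differed beyond Poisson error (chi-square over degrees of freedom 3.18 to 17.3 for each pair).

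Computed here in R 4.3.3 were TMM-scaled CPM and the quasi-likelihood test of edgeR 4.0.16 (robust, group as the only term) on the 16859 genes that passed filterByExpr with default settings, of 29060 genes with a count, adjusted over all of them by Benjamini-Hochberg (threshold 0.05). Fold changes have EZH2 shRNA on top, and each SE is derived from the F value of the test. The script was tested on simulated counts. The 38 genes and the lists were chosen with earlier results of these data known. The rule named every one of the 38 genes and up to 4 genes with the smallest p of each related list, and genes that overlap or share reads with one of the 38. Alternatives were other scalings, filters, DESeq2 1.42.0, limma 3.58.1 on log2 FPKM with a pseudocount of 1 or 0.1, a block on title numbers, removal of chromosome or neighbourhood medians, and leaving out each library. A count floor speaks to counting error only, because reads that carry no molecular identifier are not separate molecules. Shared exons were read from GENCODE v44 on the same build. Single values of some genes of the related lists are not reported here.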

Additional observations from a re-analysis of the deposited data

How the results depend on the processing

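Under 18 alternatives, 24 of the 28 falls and all 3 rises kept their call, and none of the 38 genes changed direction with a call. Of 684 values for these genes, 14 lost a call (DDIT3, ASNS, MTHFD1 and IARS) and 9 gained one (SHMT1, LARS, SARS and TARS). The count of falls ranged from 26 to 30 when single libraries were left out and the count of rises was 3 each time. All results of the 3 classes stayed within 1.5 times of their count, with the exception that 1 synthetase, LARS, was called higher with window medians removed (0 otherwise), which follows from the offset of its neighbours. EZH2 lay between -1.19 and -0.87.

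Numbers 3 and 4 in the titles occur in both groups, and the sources do not say that they pair libraries. Deviations from the group means correlated at r = 0.107 for number 3 and r = 0.119 for number 4 across genes, with only 2 such pairs. Pairs of unlike numbers ran from r = -0.141 to r = 0.0529, all below these 2 values. With the title number as replicate block, 28 of the 38 genes fell and 3 rose, as without it, and over all genes 3858 rose and 3863 fell. IARS lost its call (adjusted p = 0.0838) and TARS gained one (adjusted p = 0.0152).

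Among the related lists, removing chromosome or window medians changed the sign of 7 genes that were called before or after it. This follows from the shifts of chromosomes 2, 11, 13 and 17. Only FARSB and EIF2B4 were called in opposite directions with and without the correction. PDIA6 and MAT2A lost their call, and NARS2, SLC7A1 and NFE2L1 had no call as tested. FARSB was at 0.16 and 0.19, NARS2 at 0.17 and 0.18, EIF2B4 at 0.15 and 0.12, PDIA6 at 0.0713 and 0.0210, MAT2A at 0.11 and 0.0810 and SLC7A1 at -0.18 and -0.32 with chromosome and window medians removed. NFE2L1 was at -0.10 with chromosome medians removed. Depth limits ASNS most, with 91 to 256 reads per library.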
